A study of Mus musculus with 12 samples.

Results

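The genes described here are 31 genes of fatty acid oxidation and of its control by PPAR receptors, taken from 31719 genes with values. They were chosen by symbol from their known roles, with earlier results of these data known. They comprise 4 genes of the carnitine shuttle, 6 acyl-CoA dehydrogenases, 3 genes that pass on the electrons, 5 genes of the later steps of the mitochondrial spiral, 4 isomerases and reductases, 4 peroxisomal enzymes, and 5 receptors and coactivators. All 31 were found, and 26 had at least 1 FPKM (fragments relative to sequencing depth and the length of the gene model) in at least 3 libraries, the level required for testing. RNA was sequenced from RAW264.7, a mouse macrophage-like tumour line with wild-type genotype, in 12 libraries. There were 3 untreated libraries, 3 from cells with an antibody against the lipid receptor CD36 (diluted 1 in 100), 3 from cells with LPS (50 ng per ml) and 3 from cells with LPS and the antibody at those doses. LPS is a bacterial lipid that activates macrophages through TLR4. The labels named no isotype control antibody and no treatment time, and did not state that replicate libraries stem from separate cultures. All p-values therefore cover only the spread between libraries, which may be technical.

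Long fatty acids are activated to acyl-CoA, carried into mitochondria as carnitine esters, and shortened in repeated rounds of dehydrogenation, hydration, a further dehydrogenation and thiolysis. The electrons of the initial step leave through the electron transfer flavoprotein, and very long or branched chains start in peroxisomes. PPAR receptors are nuclear receptors that bind lipids and, with RXR partners, switch on many genes of this pathway. PGC-1 proteins, encoded by Ppargc1a and Ppargc1b, are coactivators of those receptors and of mitochondrial genes. In macrophages, oxidation of fatty acids is commonly linked to alternative activation, and inflammatory activation to glycolysis.

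Library depth recovered from the FPKM steps ran from 30070450 to 54137810 fragments. All 31 genes came out as whole fragments in all 12 libraries, within 0.02 fragments, at their annotated lengths. Of 10 macrophage markers, 9 passed the level for testing and the other, Mertk, did not exceed 0.0459 FPKM. Their summed level ran from 3904 to 5004 FPKM in untreated libraries, 4875 to 5205 with anti-CD36, 5487 to 7102 with LPS and 6516 to 7059 with both. Of 25 markers of 5 other cell types, 13 were at 0 in every library and 23 stayed under 0.1 FPKM. The exceptions were the B cell gene Cd79a and the muscle gene Tnnt2, and the summed muscle markers ran from 0.094 to 0.129 FPKM in untreated libraries and from 1.67 to 1.78 with both agents. The part of these shifts in the results below was not tested. In RNA from bulk cultures, fewer cells expressing a gene and less RNA per cell cannot be told apart.

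The genes spanned a wide range of levels in untreated cells. Highest was Etfa, the alpha subunit of the electron transfer flavoprotein, at 58.8 ± 7.50 FPKM (mean ± SD, n = 3 libraries, as for all such values below). Acadl, the long-chain acyl-CoA dehydrogenase, followed at 45.9 ± 2.08. A further 11 genes lay between 10 and 40 FPKM, 7 between 3 and 10 and 6 between 1 and 3. The remaining 5 were under 0.1 FPKM: the receptors Ppara and Pparg, the coactivator Ppargc1a, the peroxisomal bifunctional enzyme Ehhadh and the mitochondrial dienoyl-CoA reductase Decr1.

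Of the 3 PPAR receptors, Ppard alone passed the level for testing. Ppara, the receptor best known for driving oxidation genes in liver, had 0 counts in all 12 libraries. A count of 0 allows up to 3 counts, which for Ppara corresponds to at most 0.026 FPKM in any 1 library. Ppargc1a likewise had 0 counts in all 12 libraries, with a limit of at most 0.0151 FPKM. Pparg, the receptor linked to lipid storage and alternative activation, had 9 counts over the 12 libraries, none of them above 2 in a library. Its levels were 0.0125, 0.0225 and 0 FPKM in the untreated libraries, 0, 0.0225 and 0 with anti-CD36, 0, 0 and 0.02 with LPS and 0, 0.00841 and 0 with both. Ehhadh had 9 counts and Decr1 had 2 counts over all libraries, the latter both in LPS+anti-CD36 replicate 2. No direction is given for these 5 genes. These limits cover counting error only. Of 12 housekeeping genes none was at 0 in any library.

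Ppard, which encodes the PPAR found in most tissues, was the 1 gene called higher with LPS, where median-of-ratios scaling added 4 others. In replicates 1 to 3, the order used for all such values, its levels were 1.61, 1.54 and 1.42 FPKM in the untreated libraries, 1.77, 1.71 and 1.84 with anti-CD36, 6.80, 5.24 and 4.89 with LPS and 4.29, 4.22 and 4.41 with both. All 3 LPS libraries lay above all untreated ones, and replicate 1 was the highest of them. The rise was from 1.53 ± 0.0984 to 5.64 ± 1.01 FPKM, a difference of 1.39 (SE 0.10) on the log2(FPKM + 1) scale, with an adjusted p of 2.82e-07 in limma's test. Against cells with antibody alone, LPS+anti-CD36 cells were higher by 0.94 (SE 0.10, adjusted p = 8.37e-06). The gene lies on chromosome 17 at 28232700 to 28301474, plus strand (GENCODE M21, build GRCm38). The bases upstream of it are printed because it was the 1 gene of the set called higher with LPS. They span chr17:28232504-28232699, plus strand, from RefSeq on GRCm38.p6, with the hypoxia response core ACGTG in capitals as its reverse complement.
Ppard: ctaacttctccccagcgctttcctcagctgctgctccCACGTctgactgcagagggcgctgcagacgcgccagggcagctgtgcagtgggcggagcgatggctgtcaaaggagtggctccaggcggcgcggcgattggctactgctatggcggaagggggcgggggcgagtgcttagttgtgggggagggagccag

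Ppargc1b, which encodes the coactivator PGC-1beta, moved the other way. Its levels were 3.56, 4.11 and 3.93 FPKM in the untreated libraries, 3.27, 3.35 and 3.86 with anti-CD36, 2.18, 2.00 and 1.79 with LPS and 2.66, 2.55 and 2.26 with both. The LPS libraries all lay below the untreated ones, and the LPS+anti-CD36 libraries lay between the LPS and untreated groups without overlap. LPS lowered it from 3.87 ± 0.278 to 1.99 ± 0.194 FPKM, a log2 difference of −0.70 (SE 0.09, adjusted p = 3.18e-05, limma). With the antibody in both groups the LPS difference was −0.36 (SE 0.09, adjusted p = 0.00421). Between LPS+anti-CD36 and LPS the difference in Ppargc1b did not pass (0.22, adjusted p = 0.094, limma). In that comparison 19.7% of all genes were higher without overlap. The plot of regulator levels sets these genes beside Etfb and Echs1, which are described below.

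**Figure D1:**
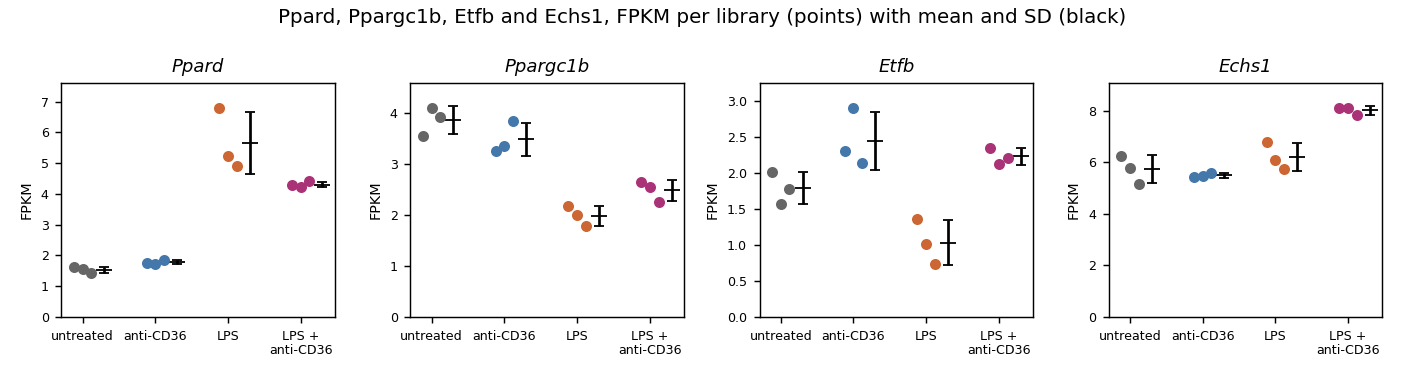
Levels of Ppard, Ppargc1b, Etfb and Echs1 in FPKM (vertical axes, from 0) in the 4 groups (horizontal axes). Points are the 3 libraries of a group and black bars the mean and SD. Ppard stood at 1.42 to 1.61 FPKM untreated and 4.89 to 6.80 with LPS, while Ppargc1b went from 3.56 to 4.11 down to 1.79 to 2.18.

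The comparison of LPS with untreated cells gives the response of the pathway to activation. Of the 26 genes tested 16 passed, 15 lower with LPS and 1 higher. Of all 10276 genes tested 49.8% passed, 33.1% lower and 16.6% higher (adjusted p under 0.05, limma on log2(FPKM + 1), Benjamini-Hochberg). The median log2 difference was −0.37 over the 26 genes and −0.14 over all genes. The groups did not overlap in 15 genes that were lower and 4 that were higher, beside 32.9% and 16.7% of all genes. With median-of-ratios scaling, which moved the median of all genes to −0.01, 10 of the 26 were lower and 5 higher (Slc25a20, Acadl, Acad10, Decr2 and Ppard), beside 21.8% and 22.6% of all genes. Both scalings shared 11 calls.

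Cpt1a had the second largest fall on this scale. It encodes the liver-type carnitine palmitoyltransferase of the outer membrane, the gate that malonyl-CoA closes. Its levels were 2.10, 2.81 and 2.81 FPKM in the untreated libraries, 2.49, 2.72 and 2.7 with anti-CD36, 0.575, 0.743 and 0.460 with LPS and 1.08, 1.02 and 0.877 with both. All 6 libraries with LPS lay below all 6 without it, and LPS alone gave the lowest group. LPS lowered it from 2.57 ± 0.408 to 0.593 ± 0.143 FPKM, a log2 difference of −1.16 (SE 0.10, adjusted p = 1.72e-06, limma). The scale shrinks changes of genes near 1 FPKM: with a pseudocount of 0.1 the difference was −1.96, and on recovered counts (limma-voom) −2.14. Between 119 and 870 counts per library lay behind these values.

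Cpt1a lies on chromosome 19 at 3322334 to 3385733, plus strand (GENCODE M21). The stretch before its RefSeq start is chr19:3323051-3323284 on the plus strand of GRCm38.p6. It is shown because the gene moved in opposite directions with LPS and with the antibody added to it. Etfb and Ppard did so too, and the Cpt1a antibody call was lost in 12 of 22 settings. The stretch lies inside the GENCODE gene model, outside annotated exons. Its capitals mark the nuclear receptor core motif AGGTCA, read on the other strand and beginning 94 bases before the start.
Cpt1a: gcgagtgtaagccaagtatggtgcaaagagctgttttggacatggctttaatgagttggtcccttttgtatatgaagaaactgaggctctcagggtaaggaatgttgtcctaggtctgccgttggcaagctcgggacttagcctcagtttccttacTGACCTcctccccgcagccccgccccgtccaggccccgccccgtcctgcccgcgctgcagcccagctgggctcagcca

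The other carnitine genes had smaller differences. Cpt2, the inner membrane palmitoyltransferase, ran from 9.90 to 10.9 FPKM untreated and from 7.78 to 8.94 with LPS, a log2 difference of −0.27 (SE 0.09, adjusted p = 0.0194). That call was lost without untreated replicate 3 (adjusted p = 0.0572), without LPS replicate 3 (0.0695), with the GC content and length trend removed (0.0592), with these 2 groups alone (0.0631) and with median-of-ratios scaling (0.19). Crat, the carnitine acetyltransferase that buffers acetyl-CoA, fell from 3.09 ± 0.259 to 2.13 ± 0.423 FPKM (−0.39, adjusted p = 0.00574, or 0.0542 with median-of-ratios scaling). Slc25a20, the translocase that exchanges acylcarnitine for carnitine, stood at 3.67 ± 0.0601 untreated and 4.30 ± 0.473 with LPS without overlap, and did not pass (0.18, adjusted p = 0.0881).

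Among the 6 acyl-CoA dehydrogenases, which start each round, 2 fell with LPS and 4 did not pass, a share of 33.3% against 33.1% of all genes lower. Acadm, for medium chains, fell from 16.7 ± 2.71 to 9.78 ± 1.89 FPKM, a log2 difference of −0.72 (SE 0.15, adjusted p = 0.00197). Acads, for short chains, stood at 20.2, 19.5 and 15.0 FPKM untreated and 15.5, 12.7 and 9.94 with LPS, with untreated replicate 3 below LPS replicate 1. Its difference of −0.50 (SE 0.15) had an adjusted p of 0.0187. The Acads call was lost without untreated replicate 1 (0.0682), without untreated replicate 2 (0.068), without LPS replicate 3 (0.0739), with these 2 groups alone (0.0656) and with median-of-ratios scaling (0.124). Acadl and Acadvl, for long and very long chains, did not pass: the differences were 0.05 (95% interval −0.11 to 0.21) for Acadl and −0.10 (−0.32 to 0.13) for Acadvl. Of the Acadvl gene model 42.9% lies opposite Dvl2 exons, so reads of these genes could be mixed if counting ignored strand, which the sources used here do not state. Acad10 (0.14) and Acad11 (−0.10), relatives with less studied substrates, did not pass either. Over 43.6% of its transcript Acad10 matches Acad12 at 96.8% identity, so reads may be split between them.

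Electrons from these dehydrogenases pass to the flavoprotein of Etfa and Etfb and then to Etfdh, which feeds ubiquinone. Etfa stood at 58.8 ± 7.50 FPKM untreated and 49.7 ± 5.31 with LPS and did not pass (−0.24, adjusted p = 0.116). Etfdh ran from 6.10 to 8.75 untreated and 4.37 to 5.99 with LPS, a difference of −0.40 (SE 0.14, adjusted p = 0.0308). The Etfdh call was lost without untreated replicate 3 (log2 difference −0.25, adjusted p = 0.113), without LPS replicate 1 (0.0926) and without LPS replicate 2 (0.078). Other settings that ended it were median-of-ratios scaling (0.0936), TPM scaling (0.0829), no filter on low values (0.0613) and these 2 groups alone (0.0889). Etfb had 29 to 127 counts per library, and 53% of its gene model is shared with the overlapping gene Gm45233 on the same strand, so its level is uncertain. Its levels were 2.02, 1.57 and 1.78 FPKM in the untreated libraries, 2.31, 2.91 and 2.14 with anti-CD36, 1.36, 1.01 and 0.735 with LPS and 2.35, 2.13 and 2.21 with both. The LPS libraries were the lowest of the 4 groups and did not overlap the others. The LPS difference was −0.46 (SE 0.12, adjusted p = 0.00666), or −0.77 with a pseudocount of 0.1 and −0.86 with limma-voom.

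Of the later steps of the spiral, Acaa2 and Hadh separated the libraries by LPS. Acaa2, the mitochondrial thiolase that releases acetyl-CoA, stood at 29.0, 24.3 and 21.9 FPKM in the untreated libraries, 24.1, 24.9 and 28 with anti-CD36, 12.0, 9.56 and 10.1 with LPS and 10.4, 10.6 and 11.4 with both. The 6 libraries with LPS ran from 9.56 to 12.0 FPKM and the 6 without it from 21.9 to 29.0. LPS alone gave a log2 difference of −1.17 (SE 0.11, adjusted p = 4.47e-06), the largest fall among the 26 genes on this scale. Hadh, the hydroxyacyl-CoA dehydrogenase for shorter chains, stood at 12.4, 12.7 and 10.0 FPKM in the untreated libraries, 12.7, 11.9 and 12.8 with anti-CD36, 5.93, 5.53 and 4.71 with LPS and 5.45, 5.12 and 5.23 with both. It separated in the same way, with no LPS library above 5.93 and no other library below 10.0 FPKM. Its LPS difference was −0.99 (SE 0.10, adjusted p = 5.77e-06).

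Hadha and Hadhb encode the alpha and beta subunits of the mitochondrial trifunctional protein, which work as one complex on long chains. They were chosen for this comparison after their values were seen. Hadha stood at 17 ± 1.33 FPKM untreated and 16.0 ± 0.918 with LPS, with overlapping groups (−0.08, 95% interval −0.26 to 0.11, adjusted p = 0.475). Hadhb fell from 18.0 ± 1.00 to 12.9 ± 0.532 FPKM without overlap (−0.46, SE 0.09, adjusted p = 0.000927). The ratio of Hadhb to Hadha FPKM was 0.945 to 1.22 in untreated libraries, 0.921 to 0.998 with anti-CD36, 0.793 to 0.819 with LPS and 0.737 to 0.784 with both. All 6 libraries with LPS thus had a lower ratio than any of the 6 without it. In exact permutation tests, LPS against untreated gave p = 0.1 (two-sided), the smallest value that 3 libraries against 3 can give. Because the pair was chosen on these same values, that p-value is no support. In the same test LPS+anti-CD36 against LPS also gave 0.1. The ratio of Etfa to Etfb, also computed, gave 0.3 for LPS against untreated. The longest transcripts of Hadha and Hadhb differ in GC content, 51.3% and 39.1%. With the GC content and length trend removed, Hadhb was still called lower with LPS against untreated. In LPS+anti-CD36 against anti-CD36, Hadhb was then not called and Hadha was called higher. The part of GC content in the ratio itself was not tested.

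**Figure D2:**
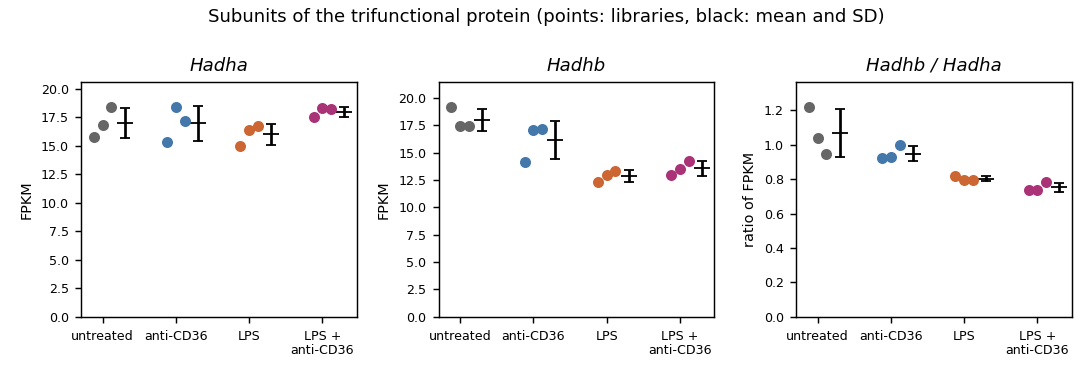
Levels of Hadha and Hadhb in FPKM (left and middle) and the ratio of Hadhb to Hadha (right), all axes from 0, in the 4 groups. Points are libraries and black bars the mean and SD of 3. The ratio lay at 0.737 to 0.819 in the 6 LPS-treated libraries and at 0.921 to 1.22 in the other 6.

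The subunit genes are neighbours on chromosome 5 and point away from each other. Hadha covers 30118304 to 30155162 on the minus strand and Hadhb 30155248 to 30184593 on the plus strand, with 85 bases between the gene models. Those bases are printed because both genes start from this one interval. The interval is chr5:30155163-30155247, written on the plus strand (GRCm38.p6), with no capitals because none of the motifs searched occurs in it.
Hadhb: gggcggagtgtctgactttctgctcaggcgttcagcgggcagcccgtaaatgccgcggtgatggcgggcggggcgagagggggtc

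Echs1, the short-chain enoyl-CoA hydratase, did not pass with LPS alone. Its levels were 6.26, 5.77 and 5.18 FPKM in the untreated libraries, 5.43, 5.45 and 5.60 with anti-CD36, 6.79, 6.09 and 5.73 with LPS and 8.12, 8.11 and 7.83 with both. The LPS+anti-CD36 libraries stood above all 9 others, and the LPS libraries lay above the anti-CD36 ones. The difference between LPS and untreated was 0.10 (95% interval −0.08 to 0.27, adjusted p = 0.336). Against anti-CD36 alone, adding LPS raised it by 0.47 (SE 0.08, adjusted p = 0.000412). The stretch before its start, chr7:140116477-140116671 read along the minus strand of GRCm38.p6, is shown because it holds a close match to the PPAR response element, which is a pair of AGGTCA motifs in the same direction with 1 base between them. The match, in capitals, begins 83 bases before the start and has 2 mismatches.
Echs1: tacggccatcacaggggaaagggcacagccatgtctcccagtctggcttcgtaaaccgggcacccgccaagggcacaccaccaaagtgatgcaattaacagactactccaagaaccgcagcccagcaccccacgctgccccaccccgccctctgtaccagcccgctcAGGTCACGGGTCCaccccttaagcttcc

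Isomerases and reductases let unsaturated fatty acids enter the spiral. Eci2, an enoyl-CoA isomerase, fell from 4.46 ± 0.157 to 3.58 ± 0.133 FPKM with LPS (−0.25, SE 0.07, adjusted p = 0.0145). Its transcript matches Gm15287 (over 21.3%), Gm15280 (16.7%) and Zfp445 (9.39%) at 95% identity or more, so some of its reads may be shared. Zfp445 stood at 8.92 to 27.0 FPKM. With these 2 groups alone the adjusted p for Eci2 was 0.0563, and with median-of-ratios scaling it was 0.163 with a difference of −0.13. Eci1, the other isomerase, stood at 16.3, 14.7 and 12.1 FPKM untreated and 13.7, 11.6 and 8.23 with LPS. Its groups overlapped and the difference did not pass (−0.35, adjusted p = 0.108). Decr2, the peroxisomal dienoyl-CoA reductase, stood at 3.61 ± 0.169 untreated and 4.06 ± 0.0695 with LPS and did not pass (0.13, adjusted p = 0.115).

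All 3 tested genes of the peroxisomal group fell with LPS, also with TPM and median-of-ratios scaling. Of all genes tested 33.1% were lower, or 30.6% and 21.8% with those scalings. Decr2, also peroxisomal but grouped with the reductases above, did not pass, and was called higher with median-of-ratios scaling. Acaa1a, the peroxisomal thiolase, stood at 34.3, 33.3 and 29.6 FPKM in the untreated libraries, 36.5, 32.6 and 33.1 with anti-CD36, 22.1, 18.7 and 15.8 with LPS and 19.6, 19.1 and 20.9 with both. Every library with LPS was below every library without it, and the LPS difference was −0.76 (SE 0.11, adjusted p = 0.000131). Over 34.1% of its transcript Acaa1a matches Acaa1b at 98.7% identity, so reads of the copies may be split between them. Hsd17b4, the multifunctional enzyme of peroxisomal oxidation, stood at 21.2, 22.6 and 22.3 FPKM in the untreated libraries, 19.5, 22.0 and 21.7 with anti-CD36, 15.4, 16.3 and 16.0 with LPS and 16.3, 16.6 and 17.6 with both. It also separated completely by LPS, with a smaller difference of −0.45 (SE 0.07, adjusted p = 0.000266). Acox3, an oxidase for branched chains, stood at 1.73, 1.79 and 1.99 FPKM in the untreated libraries, 1.56, 2.07 and 1.70 with anti-CD36, 0.795, 0.947 and 1.07 with LPS and 0.895, 0.795 and 0.817 with both. The highest LPS-treated library, LPS replicate 3, lay below the lowest other library, and the difference was −0.55 (SE 0.09, adjusted p = 0.000275), or −0.91 with a pseudocount of 0.1 and −0.99 with limma-voom.

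**Figure D3:**
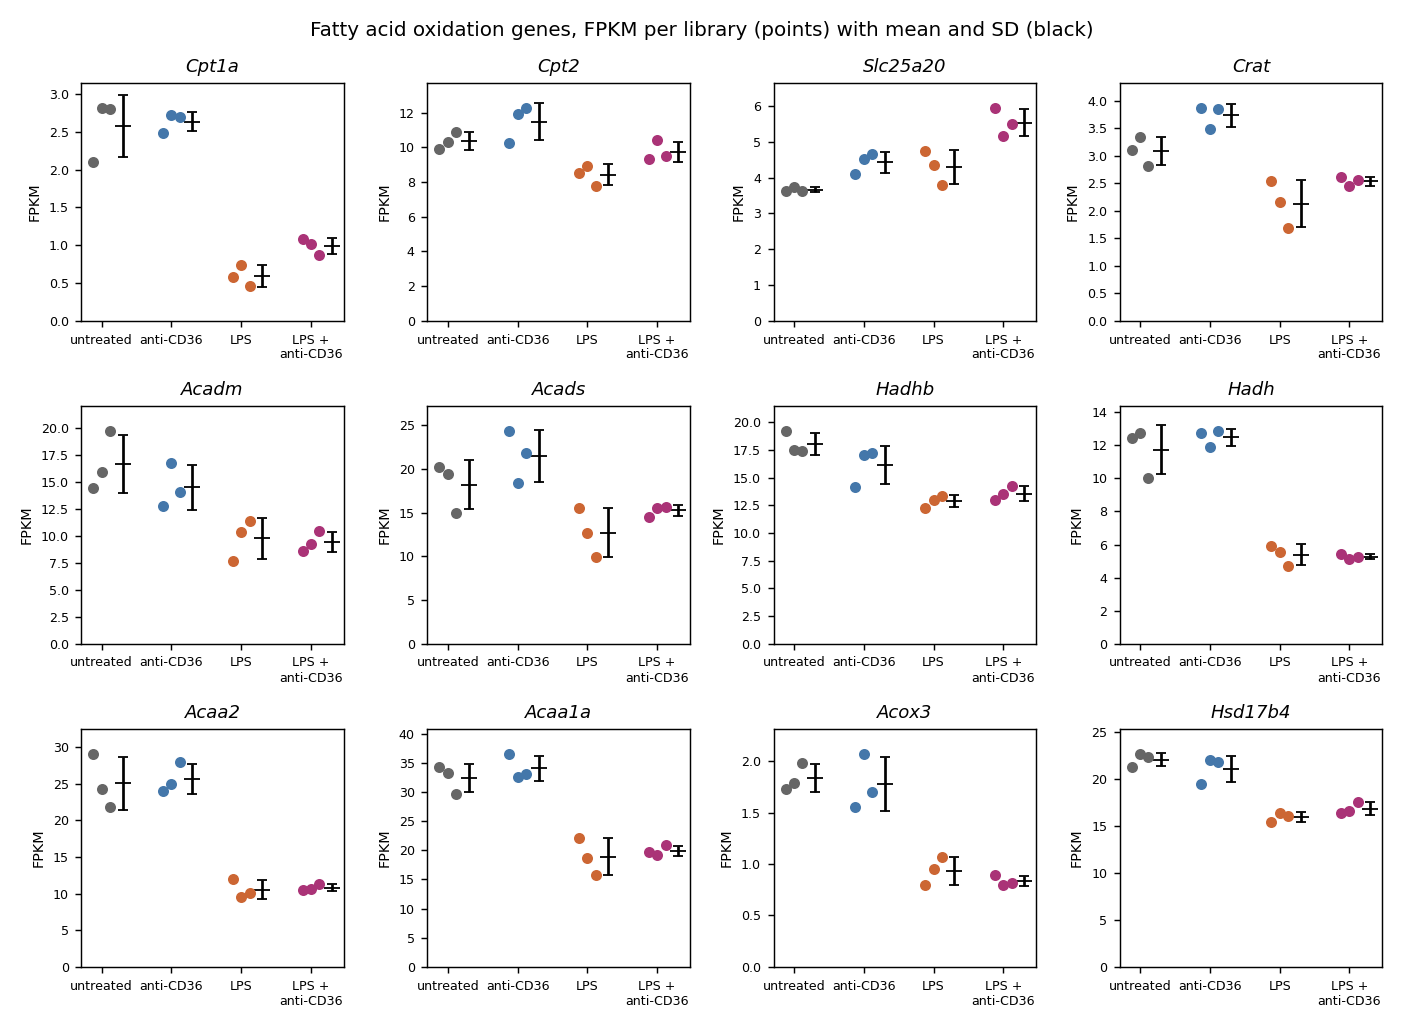
Levels in FPKM (vertical axes, each from 0) of 12 oxidation genes in the 4 groups. Points are libraries and black bars the mean and SD of 3. In Acaa2, Hadh, Cpt1a, Crat, Acadm, Acaa1a, Acox3 and Hsd17b4 all 6 LPS-treated libraries lie below the other 6. Slc25a20 is highest with both agents.

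Adding LPS to cells that had the antibody asks whether the fall is there with the antibody present. In LPS+anti-CD36 against anti-CD36 cells 15 of the 26 genes passed, 12 lower and 3 higher, beside 47.5% of all genes, 31.3% lower and 16.3% higher. The groups did not overlap in 13 genes that were lower and 4 that were higher, beside 42.3% and 21.6% of all genes. The median was −0.22, and −0.12 over all genes. With median-of-ratios scaling, which moved the median of all genes to −0.01, 9 were lower and 6 higher (Slc25a20, Acadl, Acad10, Hadha, Echs1 and Ppard), or 34.6% and 23.1% beside 21.5% and 22% of all genes. Hadh (−1.11, adjusted p = 2.31e-06), Acaa2 (−1.18, 4.31e-06) and Cpt1a (−0.87, 2.12e-05) led the fall, by limma. Acaa1a (−0.75), Acox3 (−0.59) and Hsd17b4 (−0.31, or −0.17 with median-of-ratios scaling) followed. Crat, Acadm and Ppargc1b were also called lower.

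Other calls in LPS+anti-CD36 against anti-CD36 were lost when single libraries were left out. Hadhb (−0.23, adjusted p = 0.0447) was lost in 11 of 23 settings, among them without untreated replicate 2 (0.0609), anti-CD36 replicate 2 (0.143) or 3 (0.163), LPS replicate 2 (0.0635), and the LPS+anti-CD36 libraries 1 (0.142), 2 (0.109) or 3 (0.0561). With median-of-ratios scaling Hadhb had a difference of −0.10 (adjusted p = 0.332). Acads (−0.46, adjusted p = 0.0281) was lost with median-of-ratios scaling (−0.33, 0.152) and with no filter on low values (0.0559), without anti-CD36 replicate 1 (0.105) or 3 (0.0762), and without LPS+anti-CD36 replicate 1 (0.0827), 2 (0.0622) or 3 (0.0555). Eci2 (−0.25, adjusted p = 0.0162) was lost without anti-CD36 replicate 2 (0.0702) or LPS+anti-CD36 replicate 2 (0.0622), and with median-of-ratios scaling (−0.14, 0.145). Slc25a20, which was higher (0.27, adjusted p = 0.0183), was lost without anti-CD36 replicate 1 (0.066) or LPS+anti-CD36 replicate 1 (0.0789).

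Over both LPS comparisons, 10 of the 26 genes had all 6 LPS-treated libraries below the other 6, where 22.8% of all genes tested did. They were Cpt1a, Crat, Acadm, Hadh, Acaa2, Eci2, Acox3, Hsd17b4, Acaa1a and Ppargc1b. Ppard was the 1 gene with all 6 above, which 12.1% of all genes showed. The plot of LPS differences shows both comparisons for each gene.

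**Figure D4:**
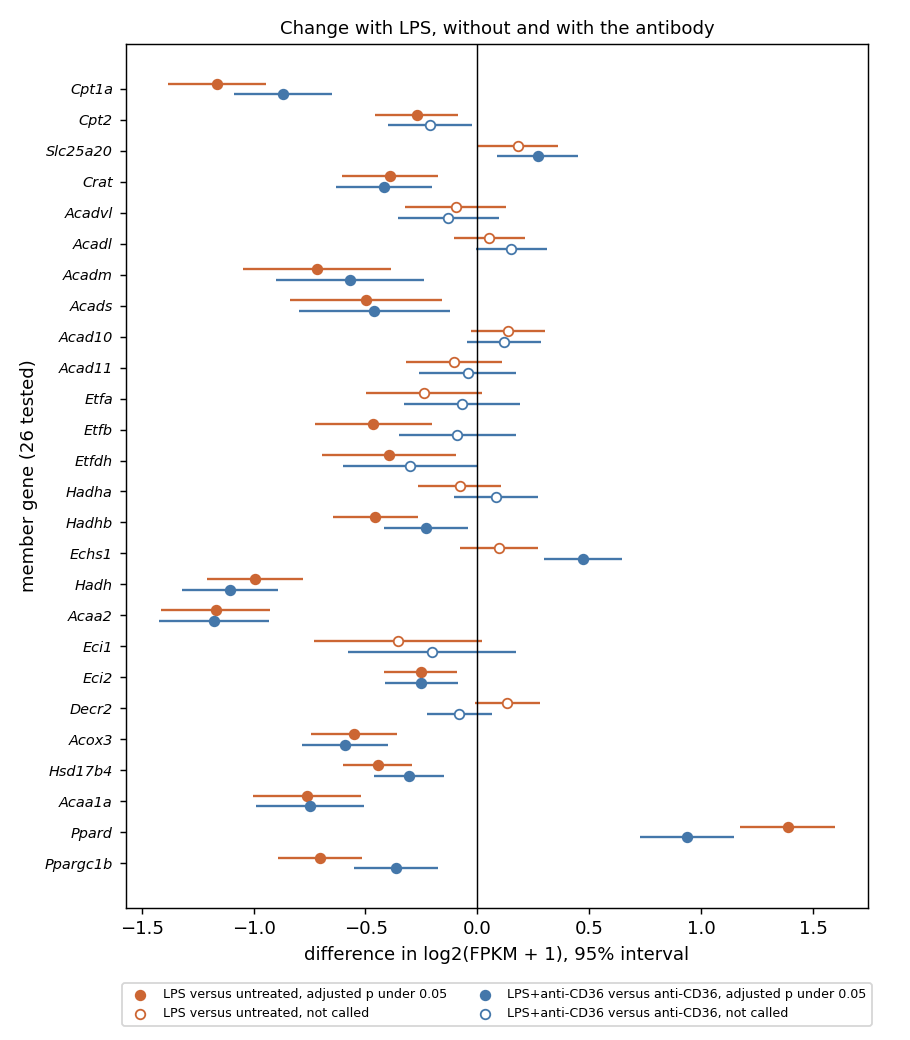
Difference in log2(FPKM + 1) with 95% interval (horizontal axis) for the 26 tested genes (vertical axis), for LPS versus untreated and for LPS+anti-CD36 versus anti-CD36. Filled points passed an adjusted p of 0.05. Cpt1a, Hadh and Acaa2 lie furthest to the left in both, and Ppard furthest to the right, at 1.39 and 0.94.

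The antibody alone was set against untreated cells as its effect without LPS. None of the 26 genes passed in limma, none passed with limma-voom on recovered counts, and 0.341% of all genes tested did pass in limma. At an unadjusted p under 0.05 there were 3: Slc25a20 (0.22, adjusted p = 0.205), Etfb (0.30, 0.215) and Decr2 (0.25, 0.125), all higher with the antibody. The groups did not overlap in 7 genes higher with the antibody and 1 lower, where 12.1% and 10.5% of all genes showed this. The median difference was 0.05 beside −0.01 over all genes, or −0.03 beside −0.09 with TPM scaling. For Cpt1a the difference was 0.03 with a 95% interval from −0.19 to 0.25. For Ppard it was 0.14 (−0.08 to 0.35), with the 3 antibody libraries above the 3 untreated ones. Across all genes, this comparison followed gene features, with a Spearman correlation of 0.552 with GC content and −0.507 with gene length. Genes are not independent replicates, and the part of these features in single genes was not tested apart from removing the trend.

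The antibody on top of LPS changed 5 of the 26 genes, 4 higher and 1 lower, beside 15.5% of all genes tested, 7.34% higher and 8.14% lower. The 4 were Cpt1a, Slc25a20, Echs1 and Etfb, and the 1 was Ppard. The median was 0.09, or −0.01 with TPM scaling, which moved the median of all genes from 0.02 to −0.08. The groups did not overlap in 9 genes that were higher and 1 that was lower, beside 19.7% and 16.4% of all genes. This comparison too followed length (Spearman −0.502 across genes) and GC content (0.367). The number called was 5 in the full fit, 8 without LPS replicate 1, and 1 without LPS replicate 2 or without any 1 of the 3 LPS+anti-CD36 libraries. Leaving out untreated replicate 2 or any 1 anti-CD36 library gave 3, and leaving out LPS replicate 3 gave 2.

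Cpt1a and Slc25a20 were the carnitine genes raised by the antibody in LPS-treated cells. Cpt1a rose from 0.593 ± 0.143 to 0.992 ± 0.105 FPKM, where untreated cells had 2.57 ± 0.408. The difference was 0.33 (SE 0.10, adjusted p = 0.0482), or 0.67 with a pseudocount of 0.1 (adjusted p = 0.0244) and 0.75 with limma-voom (0.0241). This Cpt1a call was lost in 12 of 22 settings, without untreated replicate 2 (0.0629), anti-CD36 replicate 1 (0.0582), 2 (0.0624) or 3 (0.0716), LPS replicate 2 (0.062) or 3 (0.174), and LPS+anti-CD36 replicate 1 (0.16), 2 (0.138) or 3 (0.0723). It was also lost with TPM scaling (0.0966), no filter on low values (0.0806) and the 2 groups alone (0.0784).

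Slc25a20 stood at 3.63, 3.73 and 3.64 FPKM in the untreated libraries, 4.11, 4.51 and 4.66 with anti-CD36, 4.75, 4.36 and 3.81 with LPS and 5.94, 5.18 and 5.51 with both. The LPS+anti-CD36 libraries were above all 9 others, and the untreated libraries below all others. The antibody difference under LPS was 0.30 (SE 0.08, adjusted p = 0.0308). It was lost without LPS replicate 2 (0.0905) or 3 (0.119), or without the LPS+anti-CD36 libraries 1 (0.13), 2 (0.0621) or 3 (0.0789), with TPM scaling (0.137) and with the 2 groups alone (0.0872). Of its transcript 13.3% matches sequence in other annotated transcripts at 97.5% identity or more, so some of its reads may be shared.

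Echs1 and Etfb were the other genes raised. Echs1 went from 6.20 ± 0.540 to 8.02 ± 0.165 FPKM, a difference of 0.33 (SE 0.08, adjusted p = 0.0193). The Echs1 call was lost without LPS replicate 2 (0.0784) or 3 (0.0772), without the LPS+anti-CD36 libraries 1 (0.0763), 2 (0.0781) or 3 (0.0509), and with the 2 groups alone (0.0535). Etfb went from 1.03 ± 0.311 to 2.23 ± 0.112 FPKM, a difference of 0.68 (SE 0.12, adjusted p = 0.004), and no left-out library ended its call. It is a short gene of 1164 bases with a GC content of 57.1%. With the GC content and length trend removed, the Etfb difference was 0.38 (adjusted p = 0.088), while Cpt1a (0.41, 0.00523), Slc25a20 (0.33, 0.0142) and Echs1 (0.47, 0.0155) stayed called. Hadha was then newly called higher and Acadvl lower, and Ppard was not called. That made 4 higher and 1 lower, beside 11.6% and 12.3% of all genes.

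Ppard fell when the antibody was added to LPS, from 5.64 ± 1.01 to 4.30 ± 0.0950 FPKM (−0.31, SE 0.10, adjusted p = 0.0481). All 3 LPS+anti-CD36 libraries lay below all 3 LPS libraries. LPS replicate 1 held the highest value, 6.80 FPKM, and without it the difference was −0.19 (adjusted p = 0.0548). The Ppard call was lost in 15 of 22 settings, also without untreated replicate 1 (0.0527) or 2 (0.0708), anti-CD36 replicate 1 (0.0604), 2 (0.0617) or 3 (0.0714), LPS replicate 2 (0.0907), or the LPS+anti-CD36 libraries 1 (0.135), 2 (0.142) or 3 (0.0955). A pseudocount of 0.1 (0.0573), no filter (0.0879), median-of-ratios scaling (0.0729), removal of the GC and length trend (0.0577) and the 2 groups alone (0.122) ended it too.

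**Figure D5:**
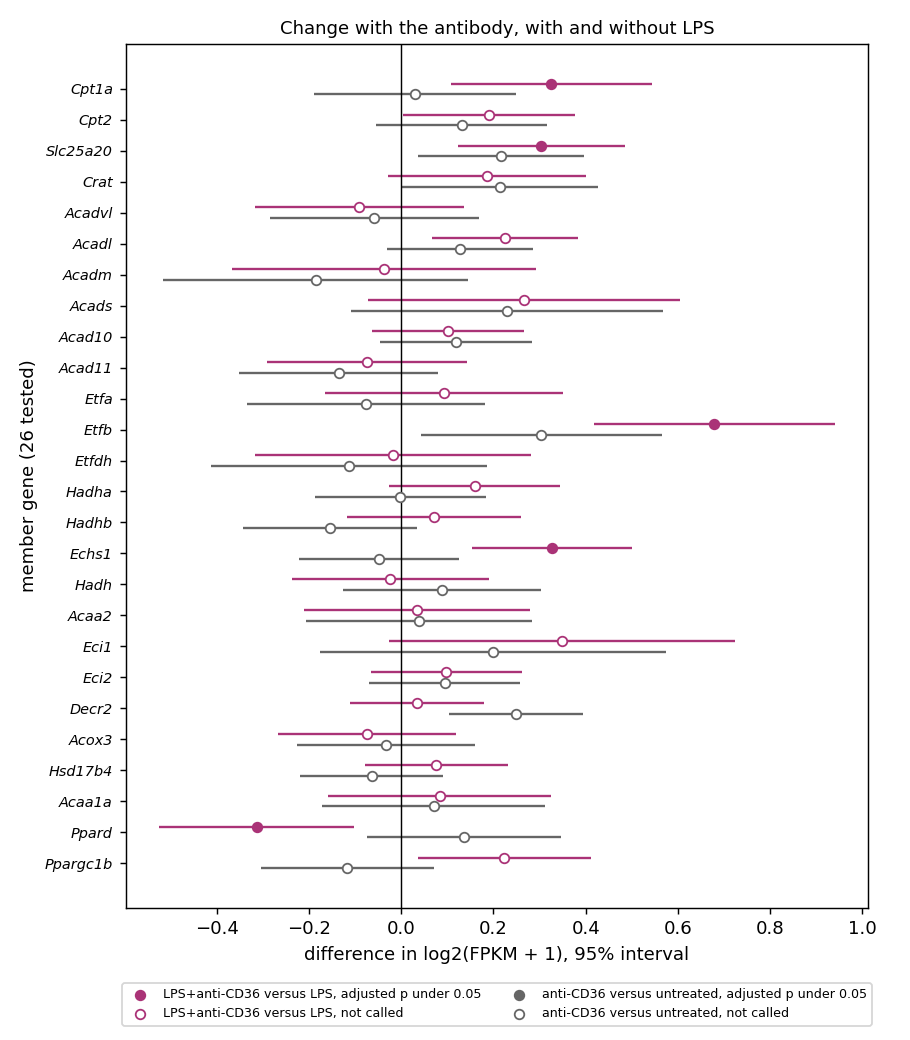
Difference in log2(FPKM + 1) with 95% interval (horizontal axis) for the 26 tested genes (vertical axis), for LPS+anti-CD36 versus LPS and for anti-CD36 versus untreated. Filled points passed an adjusted p of 0.05. With LPS, Etfb (0.68), Echs1, Cpt1a and Slc25a20 lie to the right and Ppard (−0.31) to the left, and without LPS no gene passed.

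Whether the antibody's difference depended on LPS was tested as an interaction. No gene of the 26 passed in limma or in limma-voom, beside 1.28% of all genes in limma (0.496% positive, 0.788% negative), and 5 had an unadjusted p under 0.05. For Ppard the antibody difference was 0.14 without LPS and −0.31 with it, an interaction of −0.45 (SE 0.14, adjusted p = 0.228). Echs1 (0.38, adjusted p = 0.215), Etfb (0.38, 0.57) and Ppargc1b (0.34, 0.358) had positive values and Decr2 (−0.21, 0.541) a negative one. The Cpt1a interaction was 0.30, with a 95% interval from −0.01 to 0.60 (adjusted p = 0.618).

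Other genes of the pathway were counted in lists that leave these members out. Beside them, 33.1% of all genes tested were lower and 16.6% higher with LPS (median −0.14), or 21.8% and 22.6% with median-of-ratios scaling. Of 10 tested genes of fatty acid activation and entry, 4 fell with LPS and 2 rose (40% and 20%, near those shares), with a median of −0.36. Acsl5 and Acsl1, which activate fatty acids, fell by 0.68 and by 0.41 on the log2 scale, and Dbi, the acyl-CoA binding protein, by 0.55. Acsl4, the synthetase that prefers arachidonate, rose by 0.86 and Slc27a4, a fatty acid transport protein, by 0.31. Of 18 other genes of mitochondrial oxidation 11 fell (61.1%) and 1 rose (median −0.41). Acot13, a thioesterase, had −1.02, Pccb, a subunit of propionyl-CoA carboxylase, −0.64, and Ivd, the isovaleryl-CoA dehydrogenase, −0.56, while Acadsb, which acts on short branched chains, rose by 0.77. Of 15 peroxisomal genes 5 fell, at 33.3% the share of all genes (median −0.09), among them the thiolase Scp2 (−0.66) and Acaa1b (−0.54). With median-of-ratios scaling the counts lower and higher were 2 and 2 for entry, 7 and 3 for mitochondrial and 3 and 1 for peroxisomal genes.

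Partners and coregulators of PPAR receptors, 20 tested, held 9 that fell with LPS (45%) and none that rose (median −0.23), or 8 and 1 with median-of-ratios scaling. The coactivator Ncoa3 had −0.62, and Nrf1 and Tfam, which control mitochondrial genes, −0.48 and −0.43. Genes widely listed as PPAR targets divided: of 13 tested 5 rose (38.5%) and 3 fell (23.1%, median 0.20), or 8 and 2 with median-of-ratios scaling. Fabp4, a fatty acid binding protein, went from 1.51 ± 0.390 to 18.8 ± 0.757 FPKM, Cd36, the target of the antibody, from 0.170 ± 0.0405 to 5.86 ± 1.47, and Lpl, the lipoprotein lipase, from 49.1 ± 10.0 to 119 ± 25.5. Angptl4, an inhibitor of that lipase, fell from 2.31 ± 0.741 to 0.346 ± 0.160, and Acsl1 and Pltp (−0.42) were also lower. Acsl1 is counted in both the entry and the target list. In LPS+anti-CD36 against anti-CD36, 2 entry genes were lower and 1 higher, 6 mitochondrial genes lower and 2 higher, and 4 peroxisomal genes lower and none higher. The shares lower were 20%, 33.3% and 26.7%, near or below the 31.3% of all genes. In the same comparison 12 coregulators were lower (60%) and none higher, and 6 targets were higher (46.2%, beside 16.3% of all genes) and 4 lower. With median-of-ratios scaling the counts lower and higher were 1 and 1, 5 and 3, 2 and 1, 10 and 1, and 1 and 7, for entry, mitochondrial, peroxisomal, coregulator and target genes, beside 21.5% of all genes lower and 22% higher.

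With the antibody added to LPS, 5 of the 20 coregulators fell (25%, beside 8.14% of all genes) and none rose (median −0.14). With the GC content and length trend removed 7 fell and 1 rose, beside 12.3% of all genes lower and 11.6% higher, and the median was 0.02. Ep300 and Crebbp, paired acetyltransferases, had −0.71 (adjusted p = 0.000638) and −0.46 (0.00288), and Ncor1, a corepressor, −0.57 (0.00934). Ep300 was also the 1 gene of these lists called with the antibody alone (−0.51, adjusted p = 0.0474), beside 0.341% of all genes. With TPM scaling none was, and with the GC content and length trend removed 3 were, a coregulator and a peroxisomal gene lower and a target higher, beside 1.48% of all genes higher and 2.23% lower. Of the targets 2 rose, Cd36 (0.85) and Pltp (0.37), and 2 fell, Abca1 (−0.64) and Txnip (−0.42), with the antibody added to LPS. Of all genes 7.34% were higher and 8.14% lower in that comparison. Dbi (0.43) in the entry list and Acaa1b (0.44) in the peroxisomal list rose as well, and none of the mitochondrial list passed. With the GC content and length trend removed the counts higher and lower were 1 and 1 for entry, 2 and 2 for mitochondrial, 0 and 1 for peroxisomal genes and 1 and 3 for targets. Of all genes 11.6% were then higher and 12.3% lower. In the interaction no gene of the 5 lists passed in limma, and with that trend removed 1 mitochondrial gene and 2 targets did. Of all genes 1.28% were then positive and 2.28% negative.

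Promoter letters were searched in RefSeq windows from 250 bases before to 50 after the start, which matched 26 of the 31 genes by symbol. The exact PPAR element occurred in none of the 26, and in 0.0396% of all 32851 windows, on either strand. With up to 2 mismatches outside the middle base it occurred in Slc25a20, Etfa and Echs1, and in 3.86% of all windows. The sites are shown, aligned to that element, because none matches it exactly. Their part in any difference above was not tested.
Slc25a20: AGGTGAAAGGTCG
Etfa: AGGGCAAAGGTAA
Echs1: AGGTCACGGGTCC
The Etfa site lies on the strand opposite to the gene, beginning 77 bases before the start. The Slc25a20 site begins at base 7 after the start. The single motif AGGTCA, which the full element contains 2 times, was present in Cpt1a, Acadvl, Acadm, Echs1 and Pparg (16.3% of windows), and ACGTG in Acadvl, Ppard and Ppargc1a (19.6%). The estrogen related receptor element TCAAGGTCA was in none of the 26 (0.423% of windows). These are matches of letters and not measured binding sites.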

How the data were processed

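RNA of 12 RAW264.7 libraries was analysed from a table of FPKM values, computed by the authors and deposited per gene symbol. Alignment software named in the submitters' processing notes is HISAT2 2.0.5, and mm39 and hg38 are the builds listed, with no role given. The counter, gene models and strand handling are not given in the sources used here.

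Of 31801 entries, 82 repeated symbols were left out, keeping the entry of highest mean. Il6 was left out because 6 of its values equalled those of Gm10874. Depths and counts were recovered from FPKM steps with exon-union lengths of GENCODE M21. At annotated length 94.5% to 94.6% of values per library were whole within 0.005 fragments. The 10276 genes that reached 1 FPKM in 3 or more libraries were fitted as log2(FPKM + 1) in 1 limma model of the 4 group means with an intensity trend (limma 3.58.1, R 4.3.3). It used no block. A gene was called at a Benjamini-Hochberg adjusted p under 0.05 over all genes tested, per comparison. The fit was tested on simulated data with independent spread between libraries. The simulation lacked the correlated deviations given below, so it does not measure error rates in these data. Members and lists were chosen with earlier results of these data known. Library values are given for Cpt1a, the receptors and coactivators, and up to 6 called members per direction and comparison of smallest p; from the other lists up to 3 called genes per direction are named, except 1 gene that is not reported here. Alternatives were another pseudocount, filters, scalings, no trend, fewer groups, a replicate block, removal of GC content and length trends, each library left out and, chosen after seeing the data, limma-voom on recovered counts (9660 genes). Shared sequence was found with blastn 2.17.0+. Promoters are from RefSeq (GRCm38.p6).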

Additional observations from a re-analysis of the deposited data

How the results depend on the processing

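Of 36 calls of members in the 4 pairwise comparisons, 22 were kept in every alternative run that tested the gene, and 0 reversed direction. Among the genes with such kept calls, Cpt1a, Crat, Etfb, Acox3, Ppard and Ppargc1b were not tested at a mean of at least 5 FPKM. The number called with LPS against untreated was 16, and 9 among genes with a mean of at least 5 FPKM, a stricter filter that tests fewer genes. With anti-CD36 against untreated it was 0, with a replicate block 1 (Decr2, higher) and with the block and the GC content and length trend removed 3 (Slc25a20 higher, Acadvl and Ppargc1b lower). With LPS+anti-CD36 against LPS it was 5. It was 1 at a mean of at least 5 FPKM, 1 with the compared groups alone and 8 with the block and the trend removed. With TPM scaling it was 3, beside 3.19% of all genes higher and 6.84% lower. With LPS+anti-CD36 against anti-CD36 it was 15, and 8 at a mean of at least 5 FPKM. Leaving out 1 library at a time gave 14 to 16, 0, 1 to 8, 12 to 16 and, for the interaction, 0. Where an arm was left with 2 libraries, the spread was pooled over all groups. Apart from the filters, the causes were not tested. The counts over all genes changed with the setting too, so the member counts alone are not read as results about these genes. Counts over all genes ran from 3372 to 6958, 0 to 1164, 582 to 3977, 3217 to 6846 and 66 to 527 in the same order, beside 5113, 35, 1590, 4882 and 132 in the fit reported.

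Replicate numbers were not shown to pair the libraries: deviations of same-numbered libraries correlated by 0.446 to 0.784 for number 1, −0.317 to 0.433 for number 2 and −0.0653 to 0.811 for number 3, and 7 of 12 libraries were closest to their own number. With the replicate block alone the numbers called were 18, 1, 7, 17 and 0. These too are not read as results about the members without the counts over all genes. Counts were low for Etfb, 29 to 127 per library, and the 5 genes not tested had at most 3 in any library. The part of depth in this was not tested.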
